A study of Sinohyriopsis cumingii with 2 samples.

Results

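The miR-21, miR-25, miR-101 and miR-148 families were examined in small RNAs of mantle exosomes, vesicles shed by cells, from Hyriopsis cumingii, a pearl mussel of fresh water. Their members were all sequences listed under one of these family numbers in any species, with identical sequences joined. This gave 13 distinct mature sequences of the 170 in the deposited table, carried by 139 of its 1404 catalogue entries. The miR-21 family held 3 sequences, miR-25 held 1, miR-101 held 5 and miR-148 held 4. The purple group was 1 library from purple mussels and the white group 1 library from white mussels. Healthy animals of about 2 years with a mean shell length of 9 cm were used for both, and the mantle is the tissue that secretes shell and nacre. The sources used here do not give the genotype of either type or the number of animals behind a library. With 1 library per group no difference has a replicate check, so no p-value is given.

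A miRNA is a short RNA that guides an Argonaute protein to messenger RNAs, mainly through its seed, the bases 2 to 8 counted from its 5′ end, and lowers their output. In vertebrates these 4 families have been studied in pigment cells. miR-148 and miR-101 act on MITF, the transcription factor that directs the melanocyte lineage, in human melanoma cells, and miR-25 acts on MITF in melanocytes of the alpaca. miR-21 is known in mammals for its abundance in growing and inflamed tissue and in melanoma. These roles come from vertebrates, and no role in the mussel is implied by the names.

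The sequences are given in lower case with the seed in capitals, because the seeds decide which members can be grouped by the targets they could recognise. They are the mature sequences of the deposited table, named by their human entry or, where there is none, by the first of their names.

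The miR-21 forms, which share the seed AGCUUAU and differ only at the 3′ end, were:
chi-miR-21-5p (23 nt): uAGCUUAUcagacugauguugac
hsa-miR-21-5p (22 nt): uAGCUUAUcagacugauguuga
bta-miR-21-5p (24 nt): uAGCUUAUcagacugauguugacu

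The miR-148 forms, which share the seed CAGUGCA, were:
hsa-miR-148a-3p (22 nt): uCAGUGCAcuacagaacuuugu
hsa-miR-148b-3p (22 nt): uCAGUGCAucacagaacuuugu
ggo-miR-148a (21 nt): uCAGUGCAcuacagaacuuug
ggo-miR-148b (21 nt): uCAGUGCAucacagaacuuug

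The miR-101 forms, of which the last 2 carry an extra base at the 5′ end, were:
age-miR-101 (22 nt): uACAGUACugugauaacugaag
hsa-miR-101-3p (21 nt): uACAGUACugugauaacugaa
aca-miR-101-3p (20 nt): uACAGUACugugauaacuga
ola-miR-101a-3p (21 nt): gUACAGUAcugugauaacuga
gga-miR-101-3p (22 nt): gUACAGUAcugugauaacugaa

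The only miR-25 sequence was:
hsa-miR-25-3p (22 nt): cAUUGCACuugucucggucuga

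Only 1 arm of each precursor was listed, the 5p arm for miR-21 and the 3p arm for the other families. From miR-148a to miR-148b the changes were C9U and U10C, with positions counted from 1 at the 5′ end and the miR-148a base first, so they lie just past the seed. The extra 5′ base of ola-miR-101a-3p and gga-miR-101-3p moves their seed by 1 base, to UACAGUA in place of ACAGUAC. The 139 entries carried 36 species prefixes, 24 of mammals, 7 of fishes, 2 of birds, 2 of reptiles and 1 of an amphibian, and none from outside the vertebrates. The most abundant miR-21 form, of 23 nt, was listed for goat and sheep alone, and the 24-nt form for cow alone, whereas the 22-nt form had 21 entries. None of the 16 protostome families looked for, among them bantam, miR-2, miR-8, miR-71 and miR-279, was listed.

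The purple library held 3141 tags on the 170 distinct sequences and the white library 1820, where a tag is a read assigned to an entry, as the authors' estimated count. On a scale of CPM of the listed tags, 1 tag was therefore worth 318 in purple and 549 in white. A cell is empty below 2 tags. Of the 170 sequences, 123 had under 10 tags in both libraries. Intervals are 95% exact and hold counting error only, since there is 1 library per group. Where reads carry no molecular identifier, amplified copies of a molecule count as separate tags, and the intervals are then too narrow. The intervals take each tag as a separate whole read, so the 95% is not assured for tags that were split or estimated. The authors may have repeated a sequence's tags at every entry or split them between entries, and no source used here says which. The normalized values carry 1 multiplier per library, and dividing by it put bta-miR-21-5p, which has 1 entry, between 17.2 and 17.4 tags in purple and between 8.02 and 8.18 in white. Neither range holds a whole number, so its tags were not plain whole reads.

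Together the 4 families held 563 tags in purple, or 17.9% of the listed tags (interval 16.6 to 19.3), and 304 tags in white, or 16.7% (15.0 to 18.5). Their log2 ratio of purple to white, on the share of listed tags and with 0.5 added to each count, was 0.10 (interval -0.10 to 0.31). The share of the 4 families as a whole thus differed by less than counting error. In such a mixture, fewer exosomes from a cell type and less RNA per exosome cannot be told apart. On the scale of the deposited normalized values the log2 ratio was 0.53 (0.33 to 0.74). That scale sets the depth of purple at 1.28 times that of white, against 1.73 times by listed tags, and so adds 0.43 to every log2 ratio in the table.

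**Figure D1:**
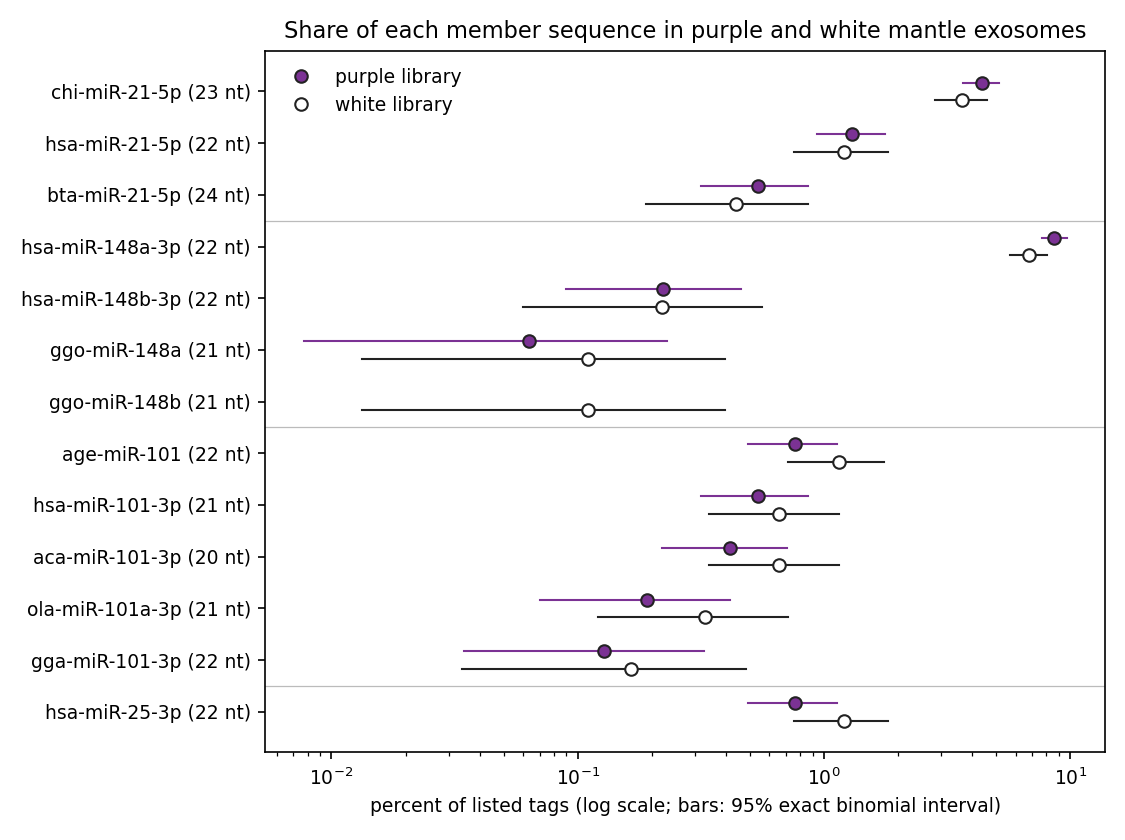
Percent of listed tags (log scale) of each of the 13 member sequences in the purple library (filled circles) and the white library (open circles), with 95% exact binomial intervals as bars. hsa-miR-148a-3p and chi-miR-21-5p lead in both libraries at 8.63% and 4.36% in purple, against 6.81% and 3.63% in white, and ggo-miR-148b has no purple point because its cell is empty.

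The families that act on MITF in vertebrates were led by miR-148. It held 280 tags in purple, or 8.91% (7.94 to 9.97), and 132 tags in white, or 7.25% (6.10 to 8.54), which ranked it 5 among the 83 families in purple and 4 in white. Its log2 ratio was 0.29 on the share of listed tags (interval -0.01 to 0.61) and 0.73 on the deposited scale (0.43 to 1.04). The direction was the same on each scale, but the interval reached 0 on the share of listed tags.

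Nearly all of the miR-148 tags were of hsa-miR-148a-3p. It had 271 tags in purple and 124 in white, with deposited normalized values of 1491 in purple and 870 in white. Its log2 ratio was 0.34 (interval 0.03 to 0.66) on the share of listed tags and 0.77 (0.46 to 1.09) on the deposited scale. It ranked 4 among all 170 sequences in both libraries. The b form is the product of a separate gene in mammals and was far rarer. hsa-miR-148b-3p had 7 tags in purple and 4 in white, with a log2 ratio of -0.05 (-1.96 to 2.24) on the share of listed tags and 0.38 on the deposited scale. ggo-miR-148a had 2 tags in each library, and ggo-miR-148b was empty in purple with 2 tags in white.

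The miR-101 family, which in mammals also acts on the chromatin enzyme EZH2, had the opposite sign. It held 64 tags in purple, or 2.04% (1.57 to 2.59), and 54 tags in white, or 2.97% (2.24 to 3.85), and ranked 11 among the families in purple and 8 in white. The log2 ratio was -0.54 on the share of listed tags (interval -1.09 to 0.01) and -0.11 on the deposited scale (-0.65 to 0.44), so neither interval excluded 0.

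The tags of miR-101 were spread over its 5 forms. age-miR-101, of 22 nt, had 24 tags in purple and 21 in white (log2 ratio -0.60, interval -1.50 to 0.32). hsa-miR-101-3p had 17 in purple and 12 in white (-0.30, interval -1.44 to 0.91), and aca-miR-101-3p had 13 in purple and 12 in white (-0.68, interval -1.92 to 0.59). Of the 5′-extended forms, ola-miR-101a-3p had 6 tags in each library and gga-miR-101-3p had 4 in purple and 3 in white. All 5 forms lay below 0 on the share of listed tags, with intervals that held 0. On that scale 124 of all 170 sequences were below 0, a count that reads an empty cell as 2 tags. On the deposited scale hsa-miR-101-3p turned to 0.13 and gga-miR-101-3p to 0.01.

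The miR-25 family, 1 sequence, was the least abundant of the 4. hsa-miR-25-3p had 24 tags in purple, or 0.764% (0.490 to 1.13), and 22 tags in white, or 1.21% (0.759 to 1.82). Its normalized values were 132 in purple and 153 in white. The log2 ratio was -0.66 on the share of listed tags (interval -1.56 to 0.24) and -0.23 on the deposited scale (-1.13 to 0.67). Its tag numbers were close to equal in the libraries, while the purple total was 1.73 times the white total.

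The miR-21 family held 195 tags in purple, or 6.21% (5.39 to 7.11), and 96 tags in white, or 5.27% (4.29 to 6.40). Its log2 ratio was 0.23 on the share of listed tags (interval -0.12 to 0.60) and 0.66 on the deposited scale (0.31 to 1.04). All 3 length forms had a positive ratio on both scales. chi-miR-21-5p had 137 tags in purple and 66 in white, with a log2 ratio of 0.26 (-0.17 to 0.71), and 0.69 (0.27 to 1.15) on the deposited scale. hsa-miR-21-5p had 41 tags in purple and 22 in white (0.10, interval -0.67 to 0.93), and bta-miR-21-5p had 17 in purple and 8 in white (0.25, interval -0.99 to 1.72).

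**Figure D2:**
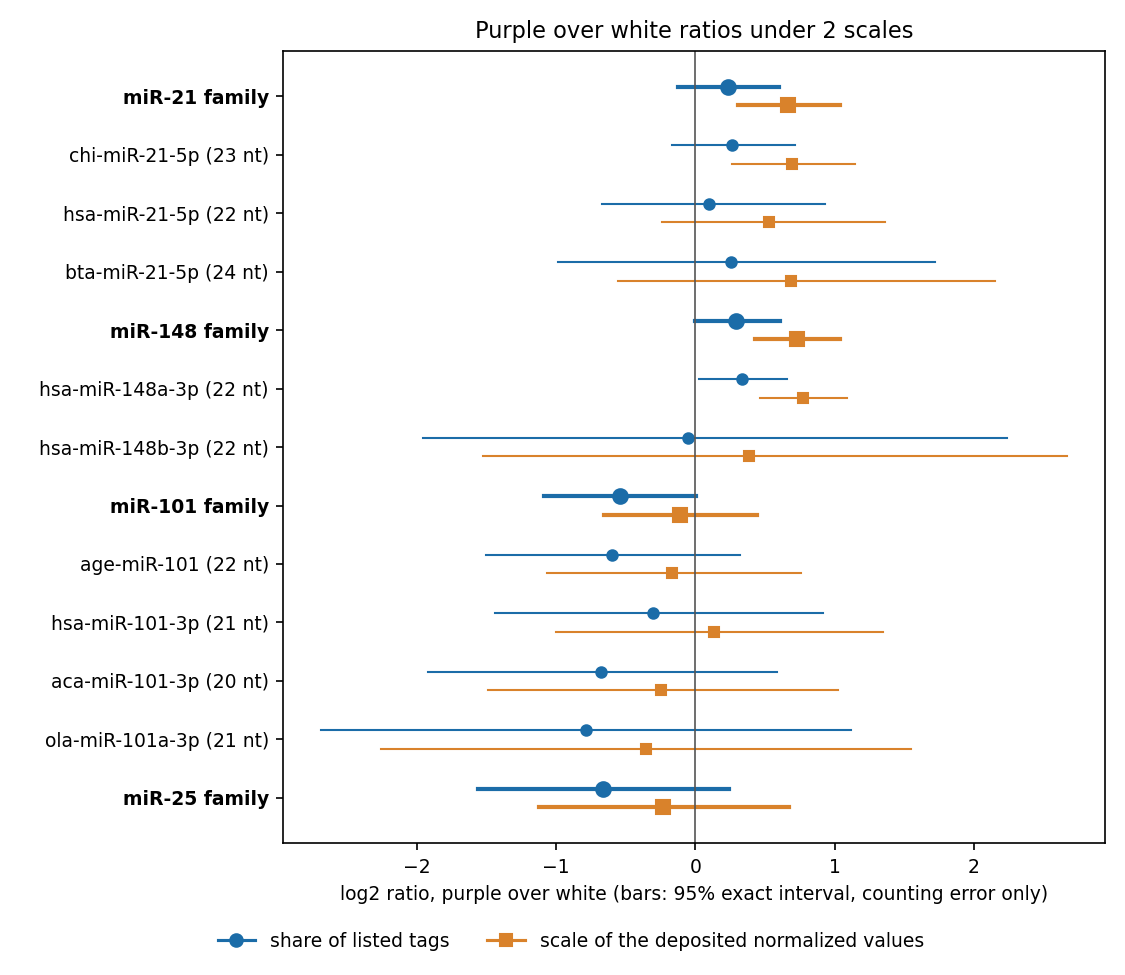
Log2 ratio of purple to white for the 4 families (bold labels, thick bars) and for members with at least 10 tags, on the share of listed tags (circles) and on the scale of the deposited normalized values (squares), with 95% exact intervals. miR-21 and miR-148 lie above 0 and miR-101 and miR-25 below 0 on both scales, and the family intervals exclude 0 for miR-21 at 0.66 and miR-148 at 0.73 on the deposited scale alone.

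None of the 13 sequences was at least 2-fold higher or at least 2-fold lower in purple on the share of listed tags. The same rule took 3 of all 170 sequences as higher, or 1.76%, and 16 as lower, or 9.41%. That balance rests on reading an empty cell as 2 tags, since with empty cells as 0 the rule took 36 sequences as higher and 25 as lower, among them ggo-miR-148b as lower. The interval lay above 0 for 1 of the 13, hsa-miR-148a-3p, and below 0 for none, against 2.35% above and 4.12% below over all sequences. With the most abundant sequence, hsa-miR-451a, left out of the total, the interval of hsa-miR-148a-3p reached 0 as well (0.25, interval -0.06 to 0.57). hsa-miR-451a had 420 tags in purple and 338 in white. The median of the 13 log2 ratios was -0.42, with 4 above 0 and 9 below, and the median over all 170 was also -0.42, with 46 above and 124 below. These counts and medians also read an empty cell as 2 tags, and 34 sequences were empty in white against 11 in purple. A sequence such as hsa-miR-423-5p, with 3 tags in purple and an empty cell in white, was thereby put below 0, at -0.30. On the deposited scale none passed 2-fold either, where the share over all sequences was 3.53% higher and 2.35% lower. There 2 of the 13 intervals lay above 0, hsa-miR-148a-3p and chi-miR-21-5p, against 4.71% of all sequences, and the median was 0.01 for the 13 and for the whole table. On either scale the shares over all sequences are not matched for tags, and an interval excludes 0 more readily with more tags. Of the 170 sequences, 123 had under 10 tags in both libraries, while 10 of the 13 members had at least 10 tags over both.

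By family, 0 of the 4 intervals excluded 0 on the share of listed tags, where of the 46 families with at least 10 tags 6.52% lay above and 10.9% below. With families empty in a library taken at 0, an alternative chosen after seeing the data, 4 of the 46 in place of 3 lay above 0, and 8 in place of 7 on the deposited scale. On the deposited scale 2 of the 4 lay above 0, against 15.2% of the 46 families, and none of the 46 lay below. An interval excludes 0 more readily with more tags, and the 46 include families with fewer tags than the 4 member families. Among other families with at least as many tags as miR-25 (46 over both libraries), those of miR-1246, miR-1260, miR-146 and miR-151 also lay above 0 on that scale. The intervals of let-7, miR-16, miR-26, miR-27, miR-30, miR-182, miR-451 and miR-486 held 0. The miR-21 and miR-148 intervals also lay above 0 with the TMM scaling, at 0.50 (0.15 to 0.87) and 0.57 (0.27 to 0.88). With DESeq2 size factors, miR-21 and miR-148 stood at 0.43 (0.08 to 0.81) and 0.50 (0.20 to 0.81). With hsa-miR-1246 left out of the total, miR-21 and miR-148 stood at 0.37 (0.01 to 0.74) and 0.43 (0.13 to 0.75). That sequence had 302 tags in purple and 8 in white, and it takes up part of the purple total. With hsa-miR-451a, the most abundant sequence, left out of the total, miR-21 and miR-148 went the other way. They stood at 0.14 (-0.21 to 0.51) and 0.21 (-0.10 to 0.52), with intervals that held 0. The miR-101 and miR-25 ratios were below 0 under each of these scalings.

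**Figure D3:**
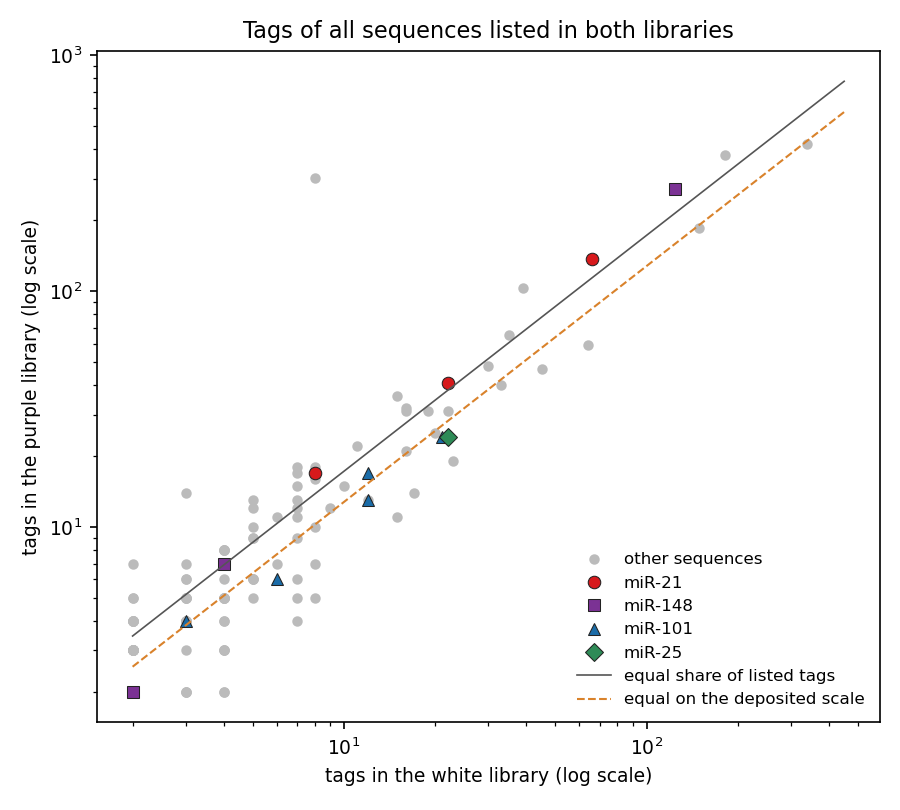
Tags in the purple library against tags in the white library (log scales) for the 125 sequences listed in both, with the 4 families in colour. The solid line marks equal shares of the listed tags and the dashed line equality on the deposited scale, and the miR-148 and miR-21 points with at least 10 tags lie above the solid line while those of miR-25 and miR-101 lie below it.

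The ratio of 2 families within a library does not depend on how the libraries are scaled, and 6 such ratios were compared. There were 4.38 miR-148 tags for each miR-101 tag in purple, against 2.44 in white, a log2 difference of 0.84 or 1.79-fold (interval 0.20 to 1.47). For miR-21 over miR-101 the ratio was 3.05 in purple and 1.78 in white, a log2 difference of 0.78 (0.11 to 1.44). Both intervals reached 0 when widened for the 6 ratios, to -0.01 to 1.68 and to -0.11 to 1.66.

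Against miR-25 the differences were of like size with wider intervals. miR-148 over miR-25 was 11.7 in purple and 6 in white (log2 difference 0.96, interval -0.003 to 1.91), and miR-21 over miR-25 was 8.12 in purple and 4.36 in white (0.89, interval -0.09 to 1.87). Within each of the pairs that share a sign the ratios were close. miR-148 over miR-21 was 1.44 in purple and 1.38 in white (0.06, interval -0.42 to 0.54), and miR-101 over miR-25 was 2.67 in purple and 2.45 in white (0.12, interval -0.95 to 1.18). Of the 6 unadjusted intervals, 2 excluded 0. Over all pairs of families with at least 10 tags 13.8% did so, and 42.1% of the 114 other pairs of families with at least as many tags as miR-25, so that 2 of 6 is not particular to these families.

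**Figure D4:**
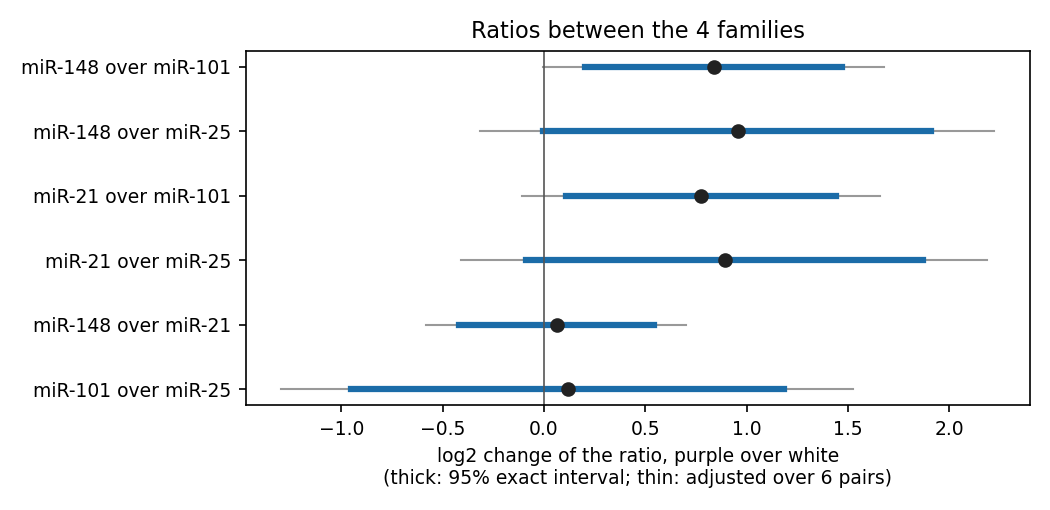
Log2 difference, purple over white, of the ratio between each pair of the 4 families, with the 95% exact interval as a thick bar and the interval adjusted over 6 pairs as a thin bar. miR-148 over miR-101 at 0.84 and miR-21 over miR-101 at 0.78 have thick bars above 0, and all 6 thin bars reach 0.

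The make-up of each family with several forms was compared between the 2 libraries, and many of the intervals were wide. The 23-nt form took 70.3% of the miR-21 tags in purple (63.3 to 76.6) and 68.8% in white (58.5 to 77.8), and the 24-nt form took 8.72% in purple and 8.33% in white. The log2 odds of the 23-nt form differed by 0.10 (interval -0.72 to 0.91). In the miR-148 family hsa-miR-148a-3p took 96.8% in purple (94.0 to 98.5) and 93.9% in white (88.4 to 97.3). Both miR-148b forms together had 7 tags in purple and 6 in white, or 2.5% of the family in purple and 4.55% in white, a log2 odds difference of -0.89 with an interval of -2.72 to 0.99.

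In the miR-101 family age-miR-101 took 37.5% of the tags in purple (25.7 to 50.5) and 38.9% in white (25.9 to 53.1). The 2 forms with the shifted seed took 15.6% in purple (7.76 to 26.9) and 16.7% in white (7.92 to 29.3), a log2 odds difference of -0.11 (-1.70 to 1.5). No form with at least 10 tags differed in its share of the family beyond counting error. The intervals were wide enough to hold a 2-fold difference in odds for each of the 4 miR-101 forms with at least 10 tags. So were those of hsa-miR-148a-3p (log2 odds difference 0.96, interval -0.66 to 2.54), hsa-miR-148b-3p, hsa-miR-21-5p and bta-miR-21-5p, but not that of chi-miR-21-5p. How reads were shared between overlapping length forms is not stated. If tags had been divided among entries, hsa-miR-21-5p, with 21 entries against 2 for chi-miR-21-5p, would lead its family, since the 23-nt form takes 23.8% of the miR-21 tags in purple and 21.9% in white when every entry is summed.

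**Figure D5:**
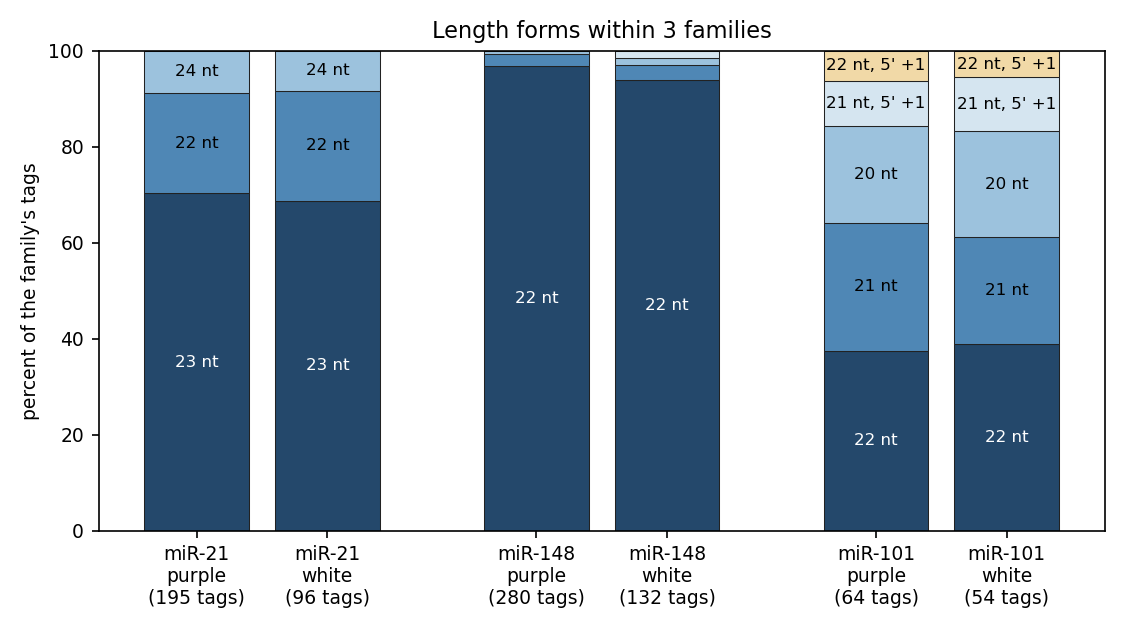
Percent of the tags of the miR-21, miR-148 and miR-101 families in each length form, for the purple and the white library, with the family's tags under each bar and "5' +1" marking forms with an extra 5′ base. The bands are of like height in both libraries, with the 23-nt form at 70.3% of miR-21 in purple and 68.8% in white.

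Grouped by seed, miR-21, miR-148 and the 3 unshifted miR-101 forms stood alone in the table. miR-152 and miR-590, the vertebrate seed relatives of miR-148 and miR-21, had no entry. The seed of miR-25, AUUGCAC, was shared by 5 further sequences of the miR-92, miR-363 and miR-32 families, with 32 tags in purple and 30 in white. Each of the 5 had a log2 ratio below 0 on the share of listed tags, between -0.99 for sko-miR-92b and -0.50 for aca-miR-363-3p, with intervals that held 0. On that scale 124 of all 170 sequences were below 0 with an empty cell read as 2 tags. The 6 sequences of this seed together had 56 tags in purple and 52 in white, a log2 ratio of -0.68 whose interval lay below 0 (-1.25 to -0.11). Among the 43 seed groups with at least 10 tags 14.0% lay below 0 and 6.98% above. Those include groups with fewer tags than this one, and an interval excludes 0 more readily with more tags. On the deposited scale the ratio of the AUUGCAC group was -0.25 with an interval that held 0 (-0.82 to 0.33). The shifted miR-101 seed, UACAGUA, was also the seed of ccr-miR-144, with 3 tags in each library. hsa-miR-144-3p, which has the first 6 bases of the common miR-101 seed, had 21 tags in purple and 16 in white.

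In mammals miR-25 is transcribed together with miR-93 and miR-106b from an intron of the replication gene MCM7. The miR-93 family had 11 tags in purple and 10 in white (log2 ratio -0.66, interval -2.02 to 0.74), and miR-106 had 11 in purple and 13 in white (-1.02, interval -2.33 to 0.25). On the deposited scale they stood at -0.22 and -0.59, so that all 3 families of this locus were below 0 on both scales, with intervals that held 0. Of the 46 families with at least 10 tags, 24 were below 0 on the share of listed tags and 19 on the deposited scale.

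Of 20 further families drawn from vertebrate pigment-cell work, 5 were listed, with 99 tags in purple and 61 in white. miR-182, which acts on MITF in human melanoma cells, had 30 tags in purple and 25 in white (-0.53, interval -1.34 to 0.30). miR-27 had 48 in purple and 24 in white (0.20, interval -0.52 to 0.98), and miR-340 had 11 in purple and 6 in white (0.04). No interval of the 4 with at least 10 tags excluded 0 on either scale. Among the families not listed were miR-137, miR-204, miR-211 and miR-218. In human melanocytes miR-211 is made from an intron of TRPM1, a target of MITF.

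Among the 17 other families with at least 30 tags, the ratios nearest to miR-148 were those of miR-151, with 416 tags in purple and 197 in white (log2 ratio 0.29), and miR-142. Nearest to miR-21 were miR-142, with 27 tags in purple and 13 in white (0.24), and miR-27. Nearest to miR-101 were miR-182, with 30 tags in purple and 25 in white (-0.53), and then miR-451, with 482 tags in purple and 393 in white (-0.49). Nearest to miR-25 were miR-92, with 19 tags in each library (-0.79), and miR-182. Likeness here is the distance between log2 ratios of the 2 libraries and says nothing of a shared origin.

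Families known from vertebrate blood cells were measured beside these ratios. Of the 46 families with at least 10 tags, 22 had a log2 ratio above 0 on the share of listed tags and 24 below. The red-cell list of miR-16, miR-92, miR-144, miR-185, miR-363, miR-451 and miR-486 had all 7 of its families listed, at 20.9% of tags in purple (19.5 to 22.4) and 30.8% in white (28.7 to 33.0). Of these, 6 had a log2 ratio below 0 on the share of listed tags, as miR-25 and miR-101 did, with 3 intervals that excluded 0, and miR-185 was at 0.44. Of all 46 families 10.9% had an interval below 0 on that scale. Those 46 include families with fewer tags than the 3 whose intervals excluded 0, miR-16, miR-451 and miR-486. On the deposited scale 0 of the 7 intervals excluded 0, with miR-451 at -0.06, miR-16 at -0.41 and miR-486 at -0.63. The miR-92, miR-144 and miR-363 families of this list were also given above as seed relatives, so those comparisons share tags. The white-cell list, with miR-142, miR-146, miR-150, miR-223 and miR-342 listed and miR-155 not, held 4.14% of tags in purple (3.47 to 4.90) and 3.13% in white (2.38 to 4.04). Its 5 listed families lay between 0.17 and 0.98 on the share of listed tags, the side of miR-148 and miR-21. All of their intervals held 0 there. With the deposited normalized values, miR-146 stood at 0.85 and its interval excluded 0 (0.23 to 1.52). Those of miR-142, miR-150, miR-223 and miR-342 still held 0. The part of blood-cell RNA in the ratios of the 4 families was not tested.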

How the data were processed

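Small RNA libraries of mantle exosomes from purple and white mussels were compared, 1 library each. Novoalign 3.02.12 and cutadapt 1.9.2 are named, per the submitters' processing notes. Settings, miRNA catalogue and build are not given in sources used here. Per the file headers, the first deposited sheet holds raw tag counts, best read as estimated counts made whole by the authors. The other deposited sheet, headed as normalized, was taken as a score since no unit is named. Its values are the tags times 5.50 in purple and 7.04 in white, within rounding.

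Entries were joined by identical sequence, and families by number. Log2 ratios used 0.5 added to each count and Clopper-Pearson intervals (SciPy 1.17.1). An empty cell was read as 2 tags for single sequences and as no tags in sums over a family or seed, except that a sum empty throughout a library was set to 2 tags for each of its sequences. Ratios between families used conditional odds ratios. Other scalings were the TMM factors of edgeR 4.0.16 and the size factors of DESeq2 1.42.0. The routines were tested on simulated data. Named were all 13 members, those with at least 10 tags one by one, up to 8 families of the pigment-cell and relatives lists, and the 2 nearest families with at least 30 tags. Members and lists were chosen with earlier results of these data known. Alternatives are given in the closing section.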

Additional observations from a re-analysis of the deposited data

How the results depend on the processing

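Among the 4 family ratios, the deposited scale moved the value beyond its counting interval for miR-21 (0.66) and miR-148 (0.73). No family changed sign under any of the 9 settings. Leaving the most abundant sequence, hsa-miR-451a, out of the total put the miR-101 interval below 0 (-0.63, -1.18 to -0.08). Unrounded tags put the miR-148 interval just above 0 (0.30, 0.01 to 0.62). The count of 0 members at least 2-fold lower became 1 with empty cells as 0 (ggo-miR-148b, empty in purple) and 6 at 1.5-fold. Over all sequences, the 3 at least 2-fold higher became 6 on the deposited scale, 6 with every entry as an item, 6 at 1.5-fold, 36 with empty cells as 0, and 1 with 5 added to each count or at 4-fold. The 16 at least 2-fold lower became 9 with TMM, 4 on the deposited scale, 8 with 5 added, 25 with empty cells as 0, 25 with unrounded tags, 58 with every entry as an item, 69 at 1.5-fold, 1 at 4-fold and 6 with at least 10 tags. With every entry summed, miR-21 held 3.54% in purple and 2.86% in white, miR-25 1.99% and 2.82%, miR-148 15.4% and 10.9%, and miR-101 2.84% in purple. Without the most abundant sequence in the total, miR-21 held 7.17% in purple and 6.48% in white, and miR-148 10.3% and 8.91%. The leading form took 23.8% of miR-21 in purple and 21.9% in white with every entry summed, and 64.9% and 67.8% of miR-101. The 6 ratios between families stayed within their intervals. With the leading sequence of each family alone, the interval of miR-148 over miR-101 reached 0 (0.93, -0.04 to 1.9), as did that of miR-21 over miR-101 (0.86, -0.17 to 1.88), and that of miR-148 over miR-25 did not (1.0, 0.04 to 1.96). These changes follow from the settings themselves: another total, another fold, another value for empty cells or weights by entry. No paired analysis was possible because there is a single library of each mussel type, which also leaves no replicate to drop. Depth limits the members with under 10 tags and miR-25, whose interval runs from -1.56 to 0.24.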
